A study of Ovis aries with 7 samples.

Results

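Dopamine and adenosine receptor genes were read in single nuclei of sheep striatum, by cell class and in OVT73 transgenic against control animals. The genes were chosen by symbol: DRD1, DRD2 and DRD3, which encode the D1, D2 and D3 dopamine receptors, and ADORA1 and ADORA2A, which encode the A1 and A2A adenosine receptors. Of these 5 symbols, 3 matched a row of the 26479 features in the gene list: DRD2 (ENSOARG00020021004), DRD3 (ENSOARG00020001358) and ADORA2A (ENSOARG00020025698). The symbols DRD1 and ADORA1 matched 0 rows, so that both receptors were not analysed here and nothing below bears on them. Nuclei came from striatal tissue of 12 sheep aged 5 years, sequenced as 7 droplet libraries. According to the paper, the tissue was the anterior ventral-medial part of the left striatum, so other parts were not sampled. The 3 OVT73 libraries each pooled 2 sheep that carry a full-length human huntingtin cDNA with an expanded polyglutamine tract behind upstream human HTT sequence. Of the 4 control libraries, from sheep without the transgene, controls 1 and 2 held 1 sheep each and controls 3 and 4 pooled 2 sheep each. The OVT73 animals belong to 1 transgenic line, and library numbers are only names.

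Dopamine reaching the striatum acts through D1-type receptors, which raise cyclic AMP through the G protein subunit encoded by GNAL, and through D2-type receptors (D2, D3 and D4), which lower it. The A2A receptor also couples to GNAL and raises cyclic AMP. The projection neurons of the striatum, the medium spiny neurons (MSNs), are classically divided into a direct pathway with D1 receptors and substance P (TAC1) and an indirect pathway with D2 and A2A receptors and enkephalin (PENK). D2 receptors are also known on cholinergic interneurons. D3 receptors are best known from the ventral striatum and the islands of Calleja of rodents.

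The libraries held 20887378 to 70473426 unique molecular identifiers (UMIs, counts of captured RNA molecules) in 3277 to 8815 barcodes, and 32599 nuclei remained after filtering, 17439 of OVT73 and 15160 of control. Of 35272 barcodes, 318 had a sequence seen in more than 1 library. UMIs on the added human HTT feature numbered 317, 60 and 25 in OVT73 libraries 1 to 3 and 1, 2, 4 and 6 in controls 1 to 4, in the direction of the labels. Clusters were named from marker genes that did not include the receptors, and the receptors were kept out of the genes used for clustering. This gave 2599 D1 MSN-like, 2266 D2 MSN-like and 316 eccentric MSN-like nuclei, 386 PV/Th interneuron-like and 40 cholinergic interneuron-like nuclei, a small SST/NPY interneuron-like class, and neuroblast-like, glial and endothelial-like classes. Another 2414 nuclei in 10 clusters stayed unnamed.

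The names rest on the following levels. TAC1 averaged 229 CPM (UMIs of the gene per 1000000 UMIs of all genes in the nuclei summed) in the D1 MSN-like sums and 13.9 CPM in the D2 MSN-like sums, and EBF1, a transcription factor of direct pathway neurons, 176 and 3.32 CPM. Of the 8 genes of the D1 list, 4 were raised in the D1 MSN-like class. PDYN, ISL1 and SLC35D3 were low, with 2.54, 1.64 and 4.60 CPM in D1 and 0.212, 0.0236 and 0.116 CPM in D2 MSN-like sums. SFXN1 averaged 332 and 243 CPM and ZNF521 7.65 and 5.72 CPM. EYA1 went the other way, with 1.83 and 2.27 CPM. In eccentric MSN-like sums ZNF521 and EYA1 were higher than in D1, with 39.6 and 10.7 CPM. TAC1 and SFXN1 averaged 124 and 296 CPM there, and EBF1 2.85 CPM. PDYN, ISL1 and SLC35D3 had 0.413, 0.0 and 0.362 CPM there. PENK averaged 45.3 CPM in D2, 1.98 CPM in D1 and 3.97 CPM in eccentric MSN-like nuclei. In the same order GRIK3 averaged 277, 40.7 and 118 CPM, and UPB1 4.78, 0.159 and 0.0 CPM. GPR6 was low, with 1.196, 0.0499 and 0.0651 CPM. SP9 averaged 7.50 CPM in D2 and 0.309 CPM in D1 MSN-like nuclei. It was higher in eccentric MSN-like nuclei, with 12.1 CPM, and in PV/Th and SST/NPY interneuron-like nuclei, with 31.2 and 55.2 CPM. The D2 list symbol GPR52 matched 0 rows. Since DRD1 was not analysed here, the name D1 MSN-like rests on the other genes of the D1 list. FOXP2 averaged 1903 CPM in the eccentric MSN-like class against 77.6 CPM in D1 and 4.89 CPM in D2 MSN-like nuclei. Of the eccentric list 3 genes were raised. OTOF and TSHZ1 averaged 117 and 552 CPM there, against 2.51 and 49.9 CPM in D1 MSN-like nuclei. PCDH8, CACNG5 and NXPH4 were low, with 0.427, 2.03 and 0.709 CPM against 0.0722, 1.98 and 0.610 CPM in D1. The symbol CASZ1 matched 0 rows. The PV/Th interneuron-like nuclei had a UMI of KIT in 84.2% and of PVALB, the parvalbumin gene, in 19.2%, but of TH, tyrosine hydroxylase, in 4.15%. The sum of their marker list, 12170 to 17255 CPM, overlapped that of the eccentric MSN-like class, 11073 to 14692 CPM, since most of it was ERBB4, with means of 14674 and 12669 CPM. KIT differed, with 296 and 36.7 CPM. In the cholinergic interneuron-like nuclei CHAT was detected in 92.5%, and SLC18A3, the vesicular acetylcholine transporter, had 0 UMIs.

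Nearly all receptor UMIs lay in the MSN-like classes. The D1, D2 and eccentric MSN-like classes made up 15.9% of the nuclei and held 90.8% of the 3156 DRD2 UMIs, 95.2% of the 6685 DRD3 UMIs and 93.3% of the 578 ADORA2A UMIs. MSN-like nuclei are also deep, so the D1 and D2 MSN-like classes alone took 32.3% and 28.0% of the UMIs of all genes. The 3 receptors divided differently among them. DRD2 and ADORA2A UMIs were mostly in D2 MSN-like nuclei, with 85.8% and 90.1%. DRD3 UMIs were shared between D1 MSN-like nuclei, with 47.0%, and D2 MSN-like nuclei, with 44.4%.

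**Figure D1:**
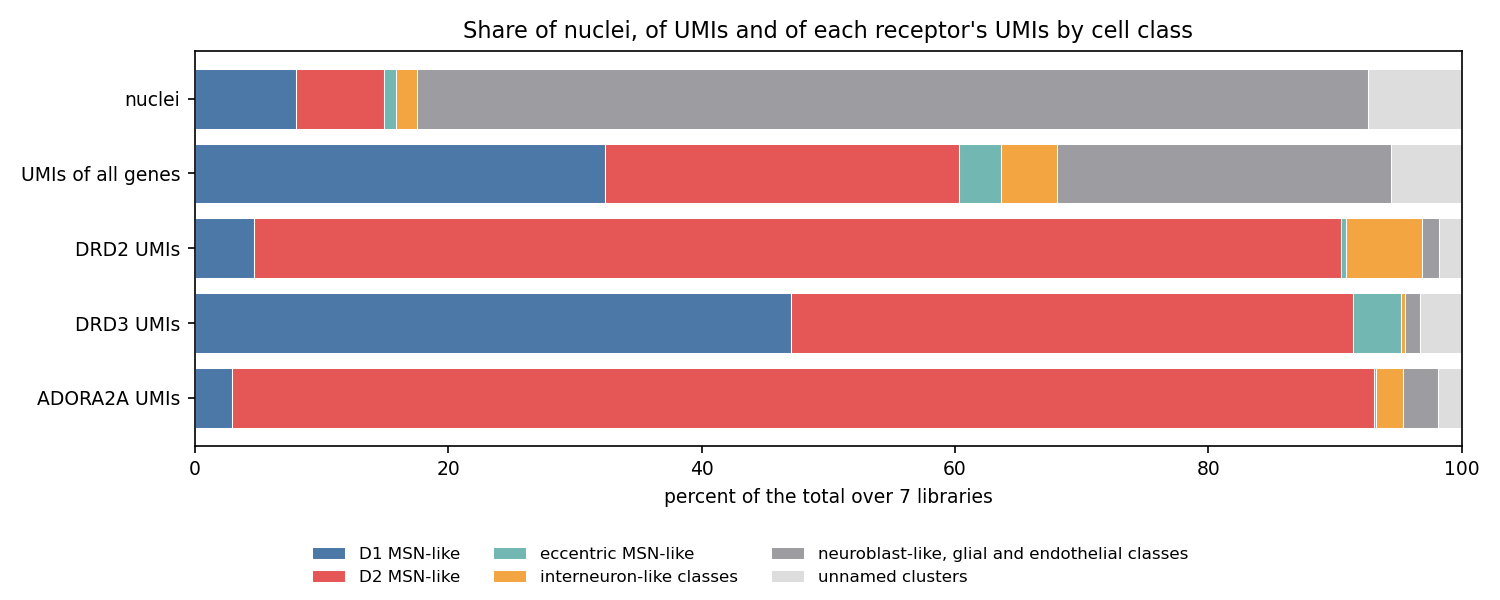
Stacked bars give the percent of nuclei, of UMIs of all genes and of each receptor's UMIs (x axis) that each cell class held, summed over the 7 libraries. D2 MSN-like nuclei, 6.95% of nuclei, held 85.8% of DRD2 and 90.1% of ADORA2A UMIs, and the DRD3 bar is split between D1 and D2 MSN-like nuclei.

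DRD2 was high in D2 MSN-like nuclei, and as high in the few cholinergic interneuron-like nuclei described below. The level in D2 MSN-like nuclei per library, as CPM of the UMIs summed over the nuclei of a class, was 34.1, 46.1 and 44.2 CPM in OVT73 libraries 1 to 3 and 37.0, 35.7, 67.3 and 73.5 CPM in controls 1 to 4. Controls 3 and 4 stood above the other 5 libraries. The D1 MSN-like sums of the same libraries gave 1.01, 2.39 and 1.70 CPM and 0.765, 2.99, 4.30 and 3.91 CPM. DRD2 was thus higher in D2 than in D1 MSN-like nuclei in 7 of 7 libraries, by 11.9-fold to 48.3-fold, a mean difference of 3.89 ± 0.39 (SD, n = 7) on the log2(CPM + 1) scale. As the classes were made by clustering the same nuclei, these differences between classes are a description and carry no test.

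A UMI of DRD2 was found in 58.9% of D2 MSN-like nuclei at a median depth of 23018 UMIs. In oligodendrocyte-like nuclei it was found in 0.119% at a median depth of 1763 UMIs. These nuclei served as a background class, on the untested assumption that they lack the receptor. With every nucleus thinned to 1000 UMIs the shares were 4.40% ± 1.25 (SD, n = 7 libraries) and 0.0571% ± 0.0542, the latter without 1721 nuclei that were too shallow. Of D1 MSN-like nuclei 4.73% had a DRD2 UMI, or 0.242% ± 0.147 after thinning. Of those 123 D1 MSN-like nuclei, 106 held 1 DRD2 UMI and 5 held 3 or more. TAC1 was detected in 88.6% of them and EBF1 in 82.9%, against 91.4% and 79.0% of the D1 MSN-like nuclei without a DRD2 UMI. PENK was detected in 15.4% of them against 3.88% of the rest, and their median depth was 28732 against 22288 UMIs. Some D1 MSN-like nuclei therefore carried DRD2 reads beside D1 marker genes, and free RNA or undetected doublets were not tested as their source.

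Interneuron-like nuclei also held DRD2. In the cholinergic interneuron-like class DRD2 had 38.8, 67.8 and 41.1 CPM in OVT73 libraries 1 to 3 and 27.3, 0.0, 60.3 and 62.8 CPM in controls 1 to 4. These sums rest on 10, 8, 4, 4, 1, 6 and 7 nuclei, and the 0 in control 2 is that of its 1 nucleus. Over all libraries 25 of 40 cholinergic interneuron-like nuclei, 62.5%, held a DRD2 UMI. The mean of 42.6 ± 23.9 CPM stood next to the 48.3 ± 15.9 CPM of D2 MSN-like nuclei, and the ranges over libraries overlapped. The cholinergic level was the higher in OVT73 libraries 1 and 2 and the lower in the other 5 libraries. Over the summed UMIs of all libraries it was the higher, 52.4 against 44.9 CPM. PV/Th interneuron-like nuclei had 12.8, 19.3 and 22.1 CPM in OVT73 and 17.1, 14.9, 21.8 and 32.5 CPM in control libraries. Every library was below its own D2 MSN-like value, and 85 of 386 nuclei, 22.0%, held a UMI. PVALB was detected in 21.2% of those 85 nuclei and in 18.6% of the others. KIT was detected in 92.9% and 81.7%, PTHLH in 62.4% and 47.2%, and HS3ST2 in 40.0% and 36.5%. TH went the other way, with 1.18% and 4.98%. These shares were not matched for depth. The SST/NPY interneuron-like class held 3 DRD2 UMIs.

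Below these, among the named classes, DRD2 was near the floor. Eccentric MSN-like nuclei held 11 UMIs in all, at 0 in 4 of 7 libraries, and 6 of the 11 were in control 3. Class means were 1.92 CPM there, 2.08 CPM in astrocyte-like, 0.689 CPM in oligodendrocyte-like, 0.340 CPM in OPC-like (oligodendrocyte precursor) and 0.208 CPM in microglia-like nuclei. The neuroblast-like mean of 4.39 CPM rests on 6 UMIs. DRD2 had 0 UMIs in 89 endothelial-like nuclei of a median depth of 1419 UMIs, which allows a share of nuclei with a UMI of up to 3.37% and sets no limit on the share that expressed the gene. In the order of class means each neighbouring pair overlapped in its range over libraries. The D2 MSN-like and D1 MSN-like ranges, which are not neighbours in that order, did not overlap.

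**Figure D2:**
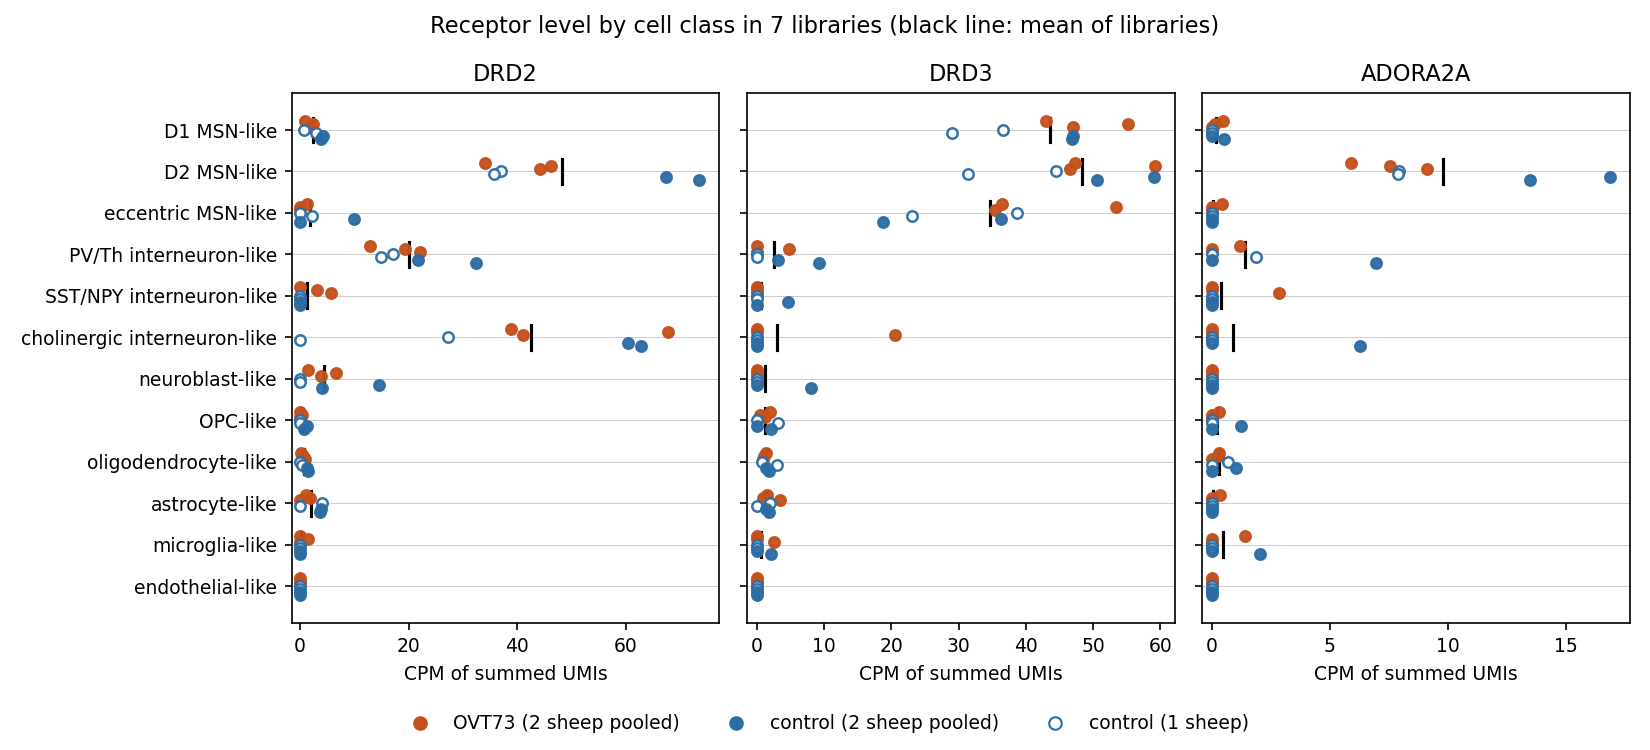
Each point is 1 library, with the level of DRD2, DRD3 or ADORA2A in a cell class on the x axis as CPM of summed UMIs, and black lines are means over libraries. ADORA2A is highest in D2 MSN-like nuclei, DRD2 is high in D2 MSN-like and cholinergic interneuron-like and lower in PV/Th interneuron-like nuclei, and DRD3 is high in D1, D2 and eccentric MSN-like nuclei.

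DRD3, a D2-type receptor gene, had a different distribution from DRD2. In D2 MSN-like nuclei it had 47.3, 59.2 and 46.5 CPM in OVT73 libraries 1 to 3 and 44.6, 31.4, 59.1 and 50.5 CPM in controls 1 to 4. In D1 MSN-like nuclei it had 43.0, 55.1 and 47.0 CPM and 36.6, 29.1, 47.0 and 46.9 CPM. The levels were close in each library, with a ratio of D2 to D1 MSN-like sums between 0.989 and 1.26. D2 was the higher in 6 of 7 libraries and the mean difference was 0.15 ± 0.12 (SD, n = 7) on the log2(CPM + 1) scale. Eccentric MSN-like nuclei had 36.5, 53.5 and 35.5 CPM in OVT73 and 38.7, 23.1, 36.2 and 18.8 CPM in control libraries, a mean of 34.6 ± 11.3 CPM. Across the 3 MSN-like classes the ranges over libraries overlapped.

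Outside the MSN-like classes DRD3 was low. PV/Th interneuron-like nuclei averaged 2.46 CPM with 16 UMIs, of which 14 came from OVT73 library 2 and control 4, and SST/NPY and cholinergic interneuron-like nuclei held 1 and 3 UMIs. Astrocyte-, oligodendrocyte- and OPC-like nuclei averaged 1.56, 1.43 and 1.26 CPM, neuroblast-like nuclei 1.16 CPM and microglia-like nuclei 0.656 CPM. A DRD3 UMI was found in 57.1% of D1, 59.1% of D2 and 40.5% of eccentric MSN-like nuclei, at median depths of 22528, 23018 and 19237 UMIs. It was found in 0.292% of oligodendrocyte-like nuclei. Thinned to 1000 UMIs these shares were 4.20% ± 0.837, 4.54% ± 0.774, 4.11% ± 1.13 and 0.167% ± 0.0915 (SD, n = 7 libraries). The largest number in 1 nucleus was 10 UMIs in D1 and 20 UMIs in D2 MSN-like nuclei.

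ADORA2A had the fewest UMIs of the 3 receptors, and most lay in D2 MSN-like nuclei. D2 MSN-like nuclei had 5.89, 7.57 and 9.13 CPM in OVT73 libraries 1 to 3 and 7.92, 7.91, 16.9 and 13.5 CPM in controls 1 to 4, from 35 to 121 UMIs per library. Controls 3 and 4 were again the highest. D1 MSN-like nuclei held 17 ADORA2A UMIs in all, 10 of them in OVT73 library 1, and 4 of 7 libraries had 0. Over the summed UMIs of all libraries the D2 level was 35.4-fold the D1 level, and 71.5-fold without OVT73 library 1. Eccentric MSN-like nuclei held 1 UMI. PV/Th interneuron-like nuclei held 9 UMIs, 6 of them in control 4, and each of the other named classes averaged below 1 CPM. ADORA2A had 0 UMIs in 89 endothelial-like and in 1298 neuroblast-like nuclei. For the latter, of a median depth of 1182 UMIs, this allows a share of nuclei with a UMI of up to 0.231% and sets no limit on the share that expressed the gene. A UMI was found in 19.3% of D2 MSN-like nuclei and in 0.0663% of oligodendrocyte-like nuclei, or 0.944% ± 0.390 and 0.0445% ± 0.0608 after thinning to 1000 UMIs (SD, n = 7 libraries). The limits given for counts of 0 cover counting error only.

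Among receptors outside the 5 symbols, ADORA2B, the A2B adenosine receptor gene (ENSOARG00020009959), had 247 UMIs in all nuclei within the limits, doublets included. It lay mostly outside neurons, with 9.64 ± 5.99 CPM in astrocyte-like, 9.46 ± 4.77 CPM in microglia-like and 3.51 ± 2.60 CPM in OPC-like nuclei (SD, n = 7), above 0 in 7 of 7 libraries of each. D1 and D2 MSN-like nuclei averaged 0.302 and 0.304 CPM. The endothelial-like mean of 36.5 CPM rests on 6 UMIs, with 4 libraries at 0. DRD4 (ENSOARG00020014018) had 22 UMIs and DRD5 (ENSOARG00020024384), which encodes the other D1-type receptor, had 2. The symbol ADORA3 matched 0 rows.

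The D2 MSN-like class was made of a larger cluster of 2047 nuclei and a smaller cluster of 219 nuclei. The smaller cluster had ALK and ADRA1A among its leading genes and had little PENK, with 2.90 to 39.9 CPM against 43.5 to 56.3 CPM in the larger one. Its leading genes ALK and NTNG1 were also among those of the eccentric MSN-like cluster. Its D2 name rests on 3 raised genes of the D2 list, against 4 in the larger cluster. GRIK3, a gene of that list, had 312 to 691 CPM in the smaller and 165 to 362 CPM in the larger cluster. DRD2 was higher in the smaller cluster in 7 of 7 libraries, with a mean of 63.1 ± 23.5 CPM against 46.7 ± 15.1 CPM (SD, n = 7). ADORA2A was higher there in 5 of 7 libraries, with 12.8 ± 5.47 against 9.52 ± 3.83 CPM. DRD3 was lower there in 6 of 7 libraries, with 35.9 ± 14.3 against 49.9 ± 9.43 CPM, the exception being OVT73 library 2. The cluster with the lower PENK level thus had the higher DRD2 level. Each library of the smaller cluster had 22 to 47 nuclei, and its PENK level of 39.9 CPM was that of control 3.

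**Figure D3:**
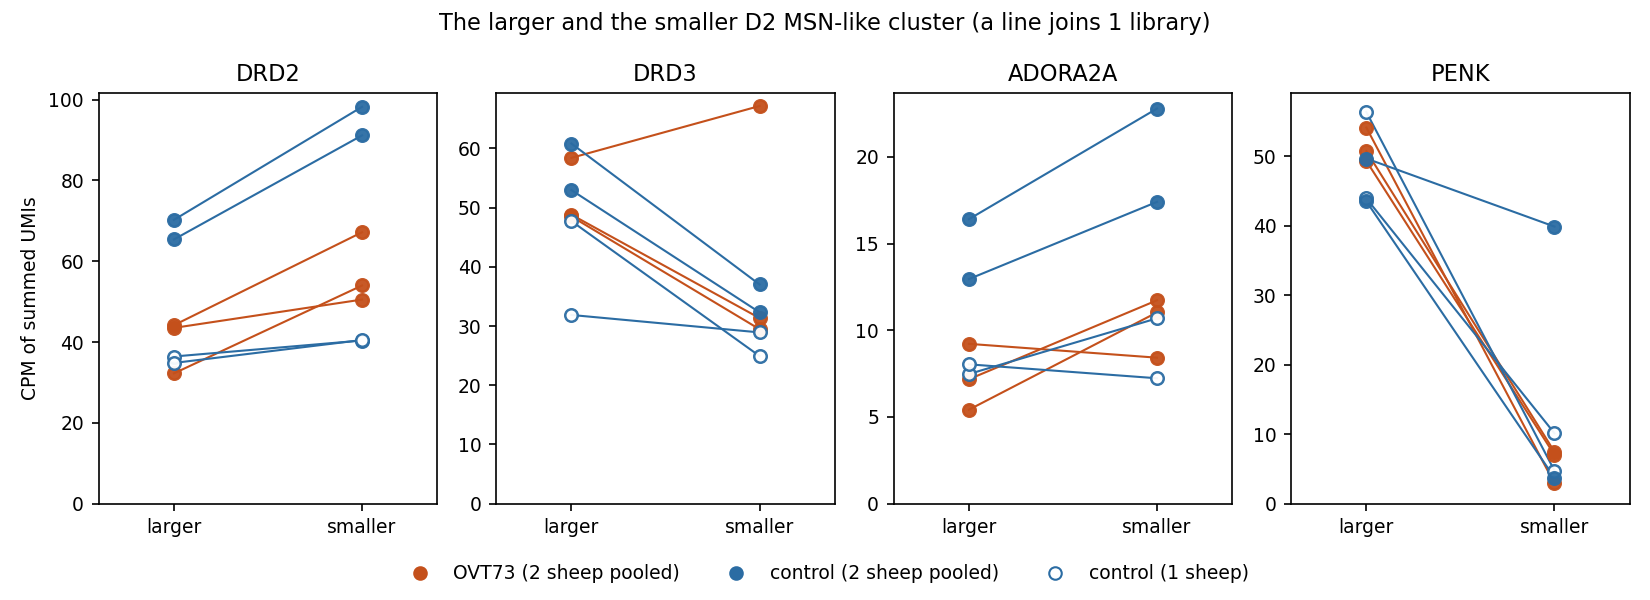
Levels of DRD2, DRD3, ADORA2A and PENK as CPM of summed UMIs (y axis) in the larger and the smaller D2 MSN-like cluster, with a line joining the values of 1 library. The DRD2 lines rise in 7 of 7 libraries, the DRD3 lines fall in 6 and the PENK lines fall in 7.

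Single D2 MSN-like nuclei held the receptors in every combination. Of the 2266 nuclei, 216 had UMIs of DRD2, DRD3 and ADORA2A, 635 of DRD2 and DRD3, 99 of DRD2 and ADORA2A, 70 of DRD3 and ADORA2A, 385 of DRD2 alone, 418 of DRD3 alone and 53 of ADORA2A alone. The other 390 nuclei, 17.2%, had none of them and a median depth of 14607 UMIs, against 37484 UMIs for nuclei with all 3. Detection thus followed depth. The share of nuclei with DRD3 was 63.7% in those with a DRD2 UMI and 52.4% in those without, but within 4 bins of nuclei ordered by depth the shares were 35.1% and 36.2%, 55.6% and 53.8%, 62.7% and 64.9%, and 82.1% and 83.5%. ADORA2A was found in 23.6% of nuclei with and 13.2% of nuclei without a DRD2 UMI. Within the bins these shares were 9.79% and 9.92%, 18.5% and 13.3%, 23.6% and 16.8%, and 32.8% and 18.3%. The ADORA2A share was higher with DRD2 than without it in 7 of 7 libraries, without matching for depth. The bins pooled all libraries and both D2 MSN-like clusters, which differ in their DRD2 and ADORA2A levels. The part of these differences in the shares was not tested. Among D1 MSN-like nuclei 1404 of 2599 had DRD3 alone, 68 had DRD2 with DRD3, 3 of them with ADORA2A too, and 1060 had none of the 3. Eccentric MSN-like nuclei had DRD3 alone in 124 of 316 and DRD2 in 8.

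**Figure D4:**
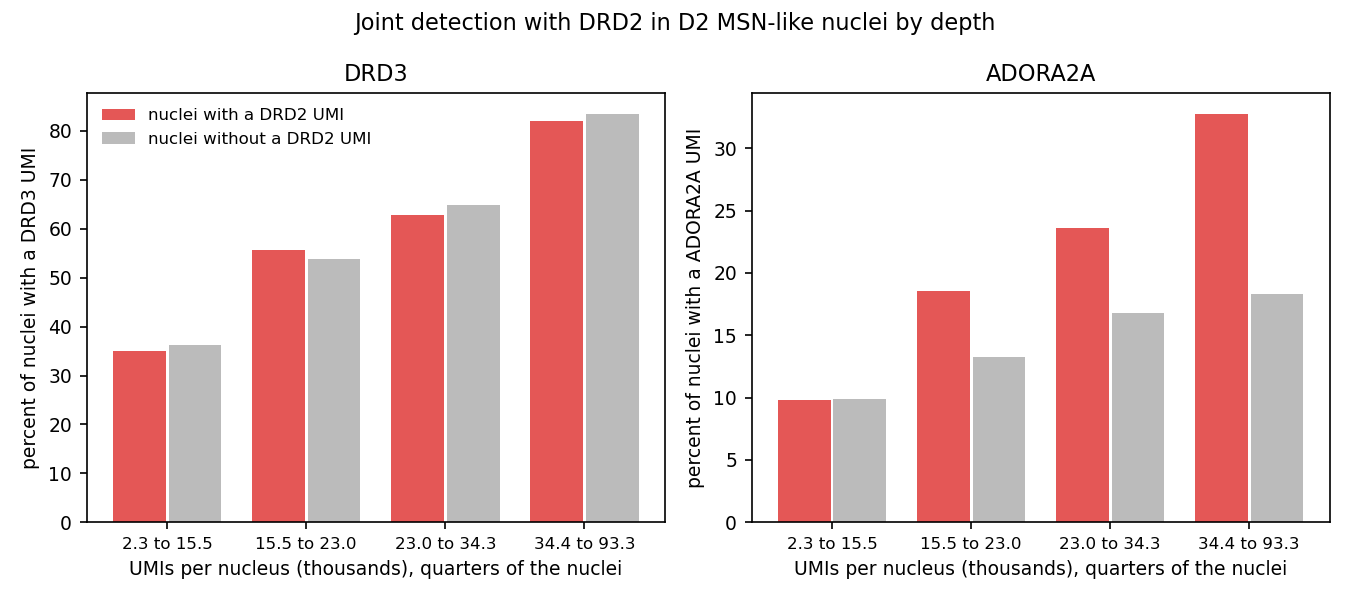
Bars give the percent of D2 MSN-like nuclei with a DRD3 UMI (left) or an ADORA2A UMI (right) among nuclei with and without a DRD2 UMI, in 4 bins of nuclei by depth (x axis, in 1000 UMIs). For DRD3 the bars of a bin lie close together, and for ADORA2A the bar with DRD2 is the higher in the 3 deeper bins.

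DRD3 was also seen outside the named classes. An unnamed cluster of 315 nuclei, with SCGN, CPNE4 and FRMD7 among its leading genes, held 99 DRD3 UMIs, 58 of them in 13 nuclei of OVT73 library 3 and 22 in 12 nuclei of control 2. The level was 79.5 CPM in OVT73 library 3, 23.1 CPM in control 2 and 0.0 to 12.2 CPM in the other 5 libraries. Most of its DRD3 UMIs thus came from 1 library. An unnamed MSN cluster of 882 shallow nuclei, with library medians of 1012 to 1600 UMIs, had 23.1 to 72.8 CPM of DRD3 from 1 to 24 UMIs per library. The same 882 nuclei held 25 DRD2 UMIs, at 0.0 to 25.4 CPM by library, and 6 ADORA2A UMIs, at 0.0 to 8.64 CPM.

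Genes whose levels followed each receptor were sought over 63 sums, 9 classes by 7 libraries, among 12273 genes with a symbol. These sums share libraries and the classes share cell types, so the correlations of log2(CPM + 1) are descriptions. DRD3 was followed most closely by CPA6 (Pearson r = 0.94), LRRC56 (0.93) and MROH2A (0.92). ADORA2A was followed by UPB1 (0.77), GPR6 (0.71) and OXTR (0.70), of which UPB1 and GPR6 were among the markers that named the D2 MSN-like class. In a RefSeq gene table of another sheep assembly (ARS-UI_Ramb_v3.0) UPB1 lies near ADORA2A on the same chromosome without overlap, with 2 loci between. DRD2 was followed by ADRA1A (0.74), PTCHD4 (0.71) and TRHR (0.69). Only TRHR was highest in D2 MSN-like sums, with 19.9 CPM against 5.84 CPM in D1. PTCHD4 averaged 239 CPM in D1 and 206 CPM in D2 MSN-like sums. ADRA1A averaged 150 CPM in PV/Th interneuron-like and 38.3 CPM in D2 MSN-like sums. The cholinergic interneuron-like class had too few nuclei per library to be among the 9 classes. ADRA1A encodes an adrenergic receptor, OXTR the oxytocin receptor and TRHR the thyrotropin-releasing hormone receptor.

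OVT73 and control libraries were compared to ask whether the transgene went with a change of receptor expression in a given class. No receptor passed the test in any of the 4 classes tested. The test was edgeR's quasi-likelihood test on UMIs summed per library and class, with Benjamini-Hochberg adjustment over all genes of the class, in those 4 classes where every library had 10 nuclei or more and a receptor passed edgeR's filter on low counts. In D2 MSN-like sums edgeR called 0 of 11939 genes (0.0%) at an adjusted p below 0.05, with 584 genes at an unadjusted p below 0.05, and DESeq2 called 5. In D1 MSN-like sums it called 0 of 12353 genes (0.0%), with 515 below 0.05 unadjusted, and DESeq2 called 2. In PV/Th interneuron-like sums it called 0 of 7513 genes (0.0%), with 271 below 0.05 unadjusted, and DESeq2 called 0. In eccentric MSN-like sums it called 1 of 7401 genes (0.0135%), UBE2U, which is no receptor, with 564 below 0.05 unadjusted, and DESeq2 called 1. The receptors are read against these shares.

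DRD2 in D2 MSN-like nuclei averaged 41.5 ± 6.49 CPM in OVT73 (SD, n = 3) and 53.4 ± 19.8 CPM in control libraries (SD, n = 4). The log2 fold change was -0.26 ± 0.27 (SE) with an edgeR adjusted p of 0.893, and an exact permutation test over libraries gave a p of 0.371. ADORA2A averaged 7.53 ± 1.62 and 11.5 ± 4.41 CPM, a log2 fold change of -0.52 ± 0.30 with an edgeR adjusted p of 0.866 and an exact permutation p of 0.229. In both genes the control spread came from controls 3 and 4, while controls 1 and 2, of 1 sheep each, lay within the OVT73 range. Controls 3 and 4 also had the lowest median depths over all nuclei, 1854.5 and 1883.5 UMIs against 2007 to 2556 UMIs in the others. In D2 MSN-like nuclei the medians were 15885 and 24607 UMIs, against 20151 to 31656 UMIs. The paper's library summary gives controls 3 and 4 the lowest share of reads in barcodes and the highest antisense share. The part of these traits in the receptor values was not tested. Leaving out each library in turn moved the log2 fold change of DRD2 between -0.41 and -0.03, the latter without control 4, and that of ADORA2A between -0.67 and -0.32, the latter without control 3. In the 5 libraries that pooled 2 sheep the groups did not overlap, as was so for 29.4% of the 12153 genes tested there. There DRD2 had 34.1 to 46.1 CPM in OVT73 and 67.3 to 73.5 CPM in control libraries, and ADORA2A 5.89 to 9.13 and 13.5 to 16.9 CPM. The log2 fold changes in those 5 libraries were -0.65 and -0.90, with unadjusted edgeR p of 0.00419 and 0.00706 and an edgeR adjusted p of 0.637 for both, among 922 genes with an unadjusted p below 0.05. DRD2 in D1 MSN-like nuclei also had groups that did not overlap in those 5 libraries, 1.01 to 2.39 against 3.91 to 4.30 CPM, with a log2 fold change of -1.16 and an edgeR adjusted p of 0.674. Of all genes tested there 28.3% did not overlap. An exact test of 3 against 2 libraries cannot go below 0.10. The sum of 7 astrocyte markers in D2 MSN-like nuclei was 416 to 454 CPM in OVT73 and 504 to 613 CPM in control libraries. In D1 MSN-like nuclei it was 463 to 566 and 569 to 734 CPM, and in eccentric MSN-like nuclei 482 to 560 and 584 to 710 CPM, without overlap in any of the 3. In PV/Th interneuron-like nuclei it was 162 to 186 and 156 to 303 CPM, with overlap. Other marker lists also separated the groups. The neuroblast list did so in D1 MSN-like nuclei, with 835 to 895 and 771 to 827 CPM. So did the PV/Th list in eccentric MSN-like nuclei and the interneuron list in PV/Th interneuron-like nuclei. The oligodendrocyte list gave 66.4 to 124 and 76.2 to 185 CPM in D2 MSN-like nuclei. Their part in the receptor values was not tested.

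DRD3 averaged higher in OVT73 than in control libraries in each MSN-like class, within the spread of the libraries. In D1 MSN-like nuclei it averaged 48.4 ± 6.19 CPM (SD, n = 3) against 39.9 ± 8.70 CPM (SD, n = 4). The log2 fold change there was 0.38 ± 0.18 with an edgeR adjusted p of 0.943 and an exact permutation p of 0.229. In D2 MSN-like nuclei the averages were 51.0 ± 7.07 and 46.4 ± 11.6 CPM, with a log2 fold change of 0.25 ± 0.19, an edgeR adjusted p of 0.877 and an exact permutation p of 0.6. The eccentric MSN-like averages were 41.8 ± 10.1 and 29.2 ± 9.76 CPM, with 0.62 ± 0.28, an unadjusted edgeR p of 0.0404, an adjusted p of 0.622 and an exact permutation p of 0.257. In the 5 libraries that pooled 2 sheep the log2 fold changes of DRD3 were 0.17 in the D1, 0.03 in the D2 and 0.70 in the eccentric class, and the groups overlapped in each, where 29.2% of the genes tested in the eccentric class did not. Without OVT73 library 2 they were 0.25, 0.10 and 0.40 over the other 6 libraries. The groups overlapped in each class, and the 3 classes come from the same libraries, so they are not 3 independent comparisons. Over all nuclei kept, DRD3 had 30.3 to 40.5 CPM in OVT73 and 18.3 to 32.8 CPM in control libraries (exact permutation p of 0.171, 0.514 adjusted over the 3 receptors).

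DRD2 in the 2 other classes tested did not pass either. In D1 MSN-like nuclei it averaged 1.70 ± 0.691 CPM (SD, n = 3) and 2.99 ± 1.58 CPM (SD, n = 4), a log2 fold change of -0.72 ± 0.53 with an edgeR adjusted p of 0.943. With the receptors among the clustering genes, the D1 MSN-like class held only 1704 nuclei, of a median depth of 18551 UMIs. There another 899 nuclei, led by EBF1 and of a median depth of 36984 UMIs, stayed unnamed. The log2 fold change of DRD2 was -0.30 in that setting and -0.40 with equal numbers of nuclei. It ranged from -1.10 without OVT73 library 2 to -0.42 without OVT73 library 1. In PV/Th interneuron-like nuclei it averaged 18.0 ± 4.73 and 21.6 ± 7.82 CPM, with -0.29 ± 0.35 and an edgeR adjusted p of 1.000. In the 5 libraries that pooled 2 sheep it was -0.59, and the groups overlapped, where 25.7% of the genes tested did not. Without control 4 it was 0.0054 over the other 6 libraries. The smallest exact permutation p over the 7 receptor and class pairs that passed the filter was 0.229, or 0.45 after Benjamini-Hochberg adjustment over the 7. For the 19 pairs below the filter with any UMI it was 0.2, or 0.969 adjusted. In each of these pairs the OVT73 and control libraries overlapped. Of all genes tested, 5.66% in D1, 6.86% in D2, 8.04% in eccentric MSN-like and 4.84% in PV/Th interneuron-like sums did not overlap.

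**Figure D5:**
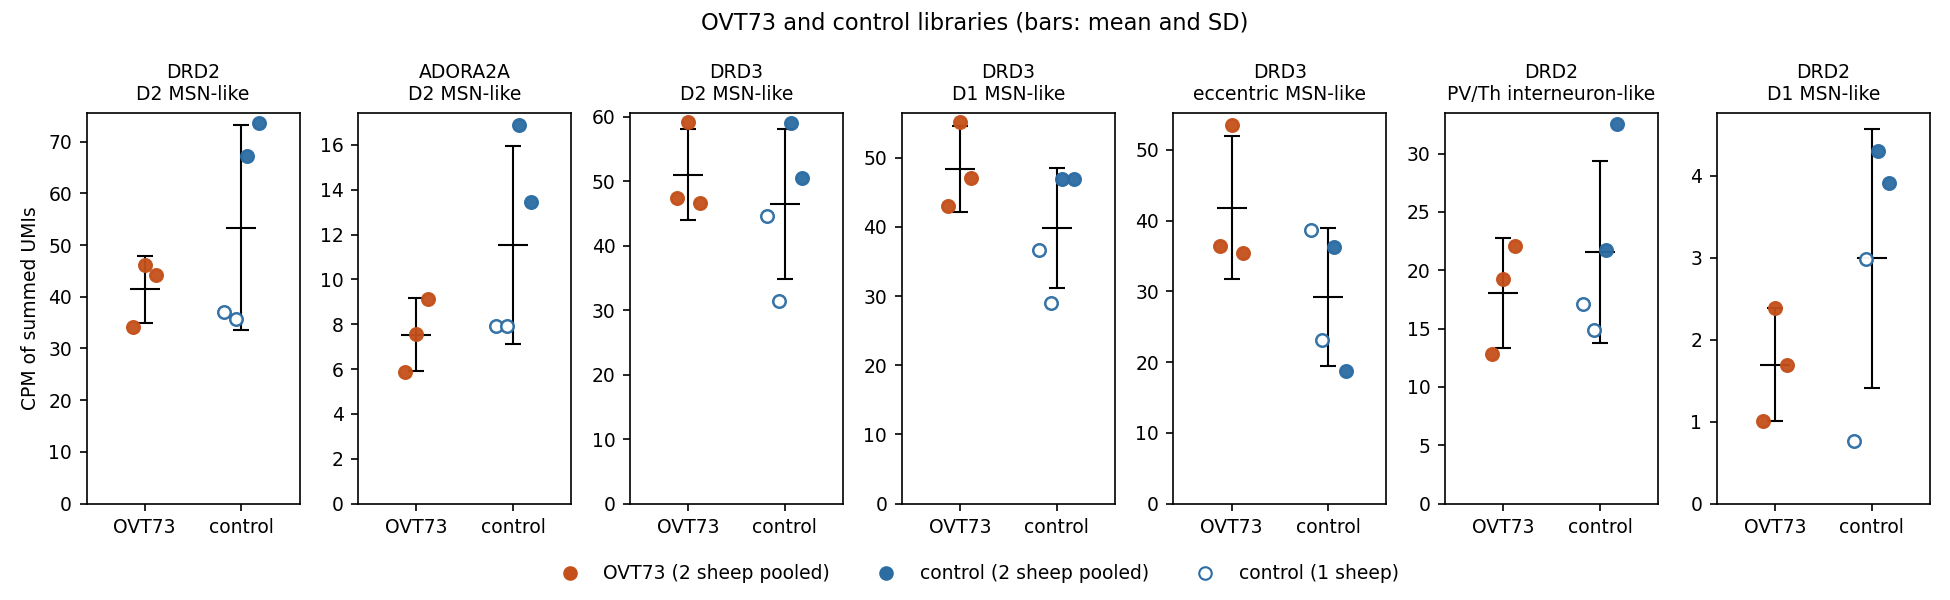
Each point is 1 library with its CPM of summed UMIs (y axis, from 0) for a receptor in a class where it was tested, in OVT73 and control libraries, with the mean and SD as bars and open points for controls of 1 sheep. The groups overlap in all 7 panels, and in D2 MSN-like nuclei controls 3 and 4 lie above the other libraries for DRD2 and ADORA2A.

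The share of nuclei with a receptor UMI also gave no difference that passed its test when each nucleus was thinned to 1000 UMIs. In D2 MSN-like nuclei DRD2 was detected in 3.88% ± 0.522 of nuclei in OVT73 (SD, n = 3) and 4.80% ± 1.56 in control libraries (SD, n = 4), with an exact permutation p of 0.371. ADORA2A was detected in 0.731% ± 0.122 and 1.10% ± 0.462, with an exact permutation p of 0.343. The smallest exact permutation p over 7 shares was 0.257, or 0.6 adjusted. All nuclei of the 4 classes were deep enough to be thinned.

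The difference between D2 and D1 MSN-like nuclei was compared between the groups to test whether the OVT73 change differed between the 2 classes. ADORA2A was left out, as it did not pass the filter on low counts in D1 MSN-like sums. For DRD2 the log2(CPM + 1) difference averaged 4.00 ± 0.18 in OVT73 (SD, n = 3) and 3.81 ± 0.51 in control libraries (SD, n = 4), with an exact permutation p of 0.6. For DRD3 it averaged 0.07 ± 0.08 and 0.20 ± 0.11, with an exact permutation p of 0.229. The D2 MSN-like share of D1 and D2 MSN-like nuclei was 46.5% ± 4.50 in OVT73 and 46.1% ± 2.46 in control libraries, with an exact permutation p of 0.8. All tests were two-sided, and the smallest p that 3 against 4 libraries allow is 0.0286.

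Genes that act with these receptors were read from 5 lists, and 0 of their tested members passed an edgeR adjusted p of 0.05 in any of the 4 classes. Signalling from the receptors to cyclic AMP was covered by 21 genes tested in both D1 and D2 MSN-like nuclei, with median log2 fold changes of -0.02 and 0.03 beside medians of -0.03 and -0.03 over all genes tested. RGS2, a regulator that shortens G protein signalling, had 18.8 to 32.5 CPM in OVT73 and 35.5 to 63.3 CPM in control libraries in D2 MSN-like nuclei. These groups did not overlap, as was so for 6.86% of the 11939 genes tested in that class. The log2 fold change of RGS2 was -0.83 ± 0.22 with an unadjusted edgeR p of 0.00365 and an adjusted p of 0.866. PRKACB, a catalytic subunit of the cyclic AMP-dependent kinase, had 353 to 373 CPM in OVT73 and 325 to 343 CPM in control libraries there, also without overlap, with 0.22 ± 0.09 and an edgeR adjusted p of 0.866. In D1 MSN-like nuclei PRKACB had a log2 fold change of 0.25 ± 0.10, and PPP1R1B, which encodes the dopamine-regulated phosphatase inhibitor DARPP-32, -0.59 ± 0.28, both with an edgeR adjusted p of 0.943. PPP1R1B averaged 20.6 ± 6.20 CPM in OVT73 (SD, n = 3) and 33.0 ± 14.2 CPM in control libraries (SD, n = 4).

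Receptor kinases, arrestins and partners gave 8 genes tested in each of D1 and D2 MSN-like nuclei, with median log2 fold changes of 0.03 and -0.06. GRK3, a kinase of the family that desensitises such receptors, averaged 27.8 ± 3.34 and 20.3 ± 3.65 CPM in D1 MSN-like nuclei. Its log2 fold change was 0.56 ± 0.17 with an unadjusted edgeR p of 0.00712 and an adjusted p of 0.943. GRK5 had 0.36 ± 0.12 in the D1 class and 0.37 ± 0.13 in the D2 class, with edgeR adjusted p of 0.943 and 0.866, and GRK6 had -0.48 ± 0.32 in D2. The dopamine synthesis, transport and breakdown list had 6 genes tested in each of these classes. DDC, which makes dopamine from its precursor, had -0.67 ± 0.40 in the D1 class and -0.43 ± 0.40 in the D2 class. MAOA, a monoamine oxidase, had 0.39 ± 0.32 and -0.18 ± 0.21. Of the adenosine list 5 genes were tested in the D1 class and 4 in the D2 class. There ENTPD2 and NT5E, which break down nucleotides outside the cell, had 0.55 ± 0.43 and -0.37 ± 0.46 in D1. NT5C2, a cytosolic nucleotidase, and ADA, which removes adenosine, had 0.08 ± 0.12 and -0.28 ± 0.54 in D2 MSN-like nuclei. No member of the list of other receptors passed the filter on low counts.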

How the data were processed

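For each library the authors deposited raw counts of UMIs per feature and barcode, made with Cell Ranger (7.0.0) and STAR (2.7.2a) on the Oar_rambouillet_v1.0 genome with the Ensembl annotation. The counts precede the authors' assignment of barcodes to sheep, quality control and normalization, so pooled sheep were not separated. Nuclei with 200 to 7500 genes and at most 5% mitochondrial UMIs were kept, and the 4% with the highest doublet scores in each library were removed. Nuclei were clustered on 3000 variable genes and 30 components after correction for library, at resolution 1.0. Clusters were named from fixed marker lists, and clusters with mixed, missing or cell cycle markers (led by TOP2A) or with over 40% doublets stayed unnamed.

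UMIs were summed per library and class. The library was the replicate, and p-values measure the spread between libraries that pool 1 or 2 sheep. Sums were tested with edgeR 4.0.16 (filterByExpr, TMM, robust quasi-likelihood) and DESeq2 1.42.0, and single values with exact permutation tests, the fits being tested on simulated data. Levels are compared between classes for 1 gene only, since gene lengths were not used. The reference table is of another assembly, so no coordinates or sequences are given. The genes named are the receptors, per list the 2 genes with the smallest p in D1 and D2 MSN-like nuclei, and the 3 genes most like each receptor; others (UBE2U and cluster-leading genes) were named after their values were seen. Levels in the larger D2 MSN-like cluster alone were an alternative chosen after seeing the data. Receptors and lists were chosen with earlier results of these data known.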

Additional observations from a re-analysis of the deposited data

Results flagged for a closer look

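Among 18 sets of control values for the receptors, 1 had a library apart from the other 3 by Dixon's criterion, which chance meets in about 1 set in 20. It was the D2 minus D1 MSN-like difference of ADORA2A, 4.16 on the log2(CPM + 1) scale in control 3, where the other controls had 3.16, 3.16 and 3.23. The D1 MSN-like sums of controls 1, 2 and 3 all held 0 ADORA2A UMIs, so that their differences depend on the pseudocount. Control 3 had the highest D2 MSN-like level, 16.9 CPM against 7.92, 7.91 and 13.5 CPM in controls 1, 2 and 4.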

How the results depend on the processing

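No receptor passed an adjusted p of 0.05 in any class under any alternative run. The smallest adjusted p was 0.381, for DRD3 in eccentric MSN-like sums with edgeR without a filter. Of 752 alternative values, 720 were counted as the same. For tested differences this meant the same direction and side of the threshold. For untested levels it meant staying within the SD over libraries, which leaving out a library can hardly break. For numbers of genes called it meant a similar number, and for the genes most like a receptor an identical list. The genes called numbered 2 in D1 and 5 in D2 MSN-like sums with DESeq2. Without a filter on low counts edgeR called 1 gene in D2, 61 in eccentric MSN-like and 28 in PV/Th interneuron-like sums, and in the 5 libraries of 2 sheep 8 and 3 in the latter classes. The eccentric count was 0 with library totals alone and 0 with equal numbers of nuclei. Leaving out each library in turn gave 0 to 1 genes in D2 (1 without OVT73 library 3) and 0 to 3 in eccentric MSN-like sums (3 without control 2). Library totals moved the median log2 fold change of all genes to -0.13 in D1 and -0.14 in D2 MSN-like sums.

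Some directions turned, each in a difference that did not pass its test. DRD2 in PV/Th interneuron-like nuclei ranged from -0.41 to 0.0054 on leaving out a library (turning without control 4). The group difference in D2 minus D1 DRD2 was -0.037 with a pseudocount of 5, and ranged from -0.014 (without control 2) to 0.39. The thinned DRD3 share in eccentric MSN-like nuclei ranged from -0.421 to 0.654 percentage points (turning without OVT73 library 2 or control 4), and the D2 MSN-like share from -2.18 to 1.73 (turning without OVT73 library 1, control 1 or control 4). In D2 MSN-like nuclei MAOA ranged from -0.27 to 0.0091 (turning without control 1) and was 0.11 in the 5 libraries of 2 sheep, ADA ranged from -1.12 to 0.11 (turning without OVT73 library 1), and NT5C2 was -0.025 with library totals. The cause of these turns was not tested. With Spearman's rho, 0, 2 and 1 of the 3 genes most like DRD2, DRD3 and ADORA2A were also on the Pearson lists.

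At resolution 0.5 the PV/Th and cholinergic interneuron-like nuclei merged into an unnamed cluster, which gave no values for them. That cluster held 704 nuclei, where the 2 classes had 386 and 40, so other nuclei were in it too. It had SCGN among its leading genes and a mean per-nucleus DRD3 level of 17.0 CPM. No paired analysis was possible because library numbers are names only and pair no samples. Counts limit ADORA2A most, with 578 UMIs in all.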
